A study of Mus musculus with 8 samples.

Results

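The 10 circadian clock genes examined here were the transcriptional activators Arntl (also called Bmal1) and Clock, the repressors Per1, Per2, Per3, Cry1 and Cry2, the nuclear receptors Nr1d1 and Nr1d2 (Rev-erb alpha and beta), and the output factor Dbp. They were chosen by name, and all 10 of 10 were found among the 13708 genes of the deposited count table. They were read in poly(A) RNA of LSK cells, the mouse bone marrow cells that lack lineage markers and carry Sca-1 and c-Kit, and among which the stem cells and early progenitors of blood are found. The 4 db/db libraries came from B6.BKS(D)-Leprdb/J mice, homozygous for the mutated leptin receptor, which become obese and diabetic. The 4 db/m libraries came from B6.BKS(D)-Leprdb/+ mice, heterozygous for the same allele, so both groups carry it. The genotype field of the labels set the groups, since the sample titles carry db/m for both genotypes. The labels place all 8 samples at 6 months after diabetes, and libraries are named below by genotype and a replicate number that follows their order of deposit. The labels do not say that each library came from its own mouse, so p-values here reflect variation among libraries, which may be technical. Age, sex and the time of day at which marrow was taken are not stated in the sources used here, and neither is pooling of mice.

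In the mammalian clock, the proteins ARNTL and CLOCK bind together to E-box sequences and switch on the Per, Cry and Rev-erb genes and Dbp. PER and CRY proteins then return to the nucleus and inhibit ARNTL and CLOCK, while the Rev-erb receptors repress Arntl through ROR elements and DBP acts on D-box sequences. The loop completes about a cycle a day in most tissues, so the level of each gene depends on the hour, and in mice it is known for timing the release of blood stem cells from bone marrow. Per1 is also an inducible gene, switched on quickly by cyclic AMP signalling through CREB and by glucocorticoid hormones.

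Promoter sequence was searched for the elements through which the loop is known to act. RefSeq promoter windows on the GRCm38.p6 build, which run from 250 bases before to 50 bases after an annotated start, covered 9 of the 10 genes in 13 windows, without Per2. The windows of Per1 and Cry1 are shown because they hold the E-box CACGTG, the element bound by ARNTL and CLOCK. A window of Arntl with the ROR element (AANT followed directly by AGGTCA) and the window of Per3 with D-boxes (TTATGNAA) were added after the matches were seen. Capitals mark matches on either strand, among them the E′-box CACGTT, which reads AACGTG on the strand shown for Cry1, and all sequences run 5′ to 3′ along the strand of the gene.
Per1, chr11:69098699-69098998, plus strand: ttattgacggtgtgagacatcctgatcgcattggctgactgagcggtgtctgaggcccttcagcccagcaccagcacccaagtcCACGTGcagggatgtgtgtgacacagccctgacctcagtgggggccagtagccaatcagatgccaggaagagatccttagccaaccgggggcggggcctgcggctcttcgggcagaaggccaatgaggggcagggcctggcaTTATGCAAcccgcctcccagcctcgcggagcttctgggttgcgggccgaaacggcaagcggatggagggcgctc
Cry1, chr10:85185005-85185304, minus strand: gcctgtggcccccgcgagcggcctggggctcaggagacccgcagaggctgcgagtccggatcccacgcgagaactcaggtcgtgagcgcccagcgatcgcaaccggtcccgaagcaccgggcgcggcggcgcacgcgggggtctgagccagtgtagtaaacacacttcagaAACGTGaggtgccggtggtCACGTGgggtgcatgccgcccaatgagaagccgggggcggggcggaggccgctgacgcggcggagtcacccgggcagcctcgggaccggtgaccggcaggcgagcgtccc
Arntl, chr7:113207261-113207560, plus strand: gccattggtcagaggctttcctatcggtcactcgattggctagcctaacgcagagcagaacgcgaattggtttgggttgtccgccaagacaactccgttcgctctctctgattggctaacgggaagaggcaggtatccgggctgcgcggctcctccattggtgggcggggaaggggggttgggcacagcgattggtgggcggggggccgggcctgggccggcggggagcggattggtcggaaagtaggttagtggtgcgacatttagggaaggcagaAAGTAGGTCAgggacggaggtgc
Per3, chr4:151044616-151044915, minus strand: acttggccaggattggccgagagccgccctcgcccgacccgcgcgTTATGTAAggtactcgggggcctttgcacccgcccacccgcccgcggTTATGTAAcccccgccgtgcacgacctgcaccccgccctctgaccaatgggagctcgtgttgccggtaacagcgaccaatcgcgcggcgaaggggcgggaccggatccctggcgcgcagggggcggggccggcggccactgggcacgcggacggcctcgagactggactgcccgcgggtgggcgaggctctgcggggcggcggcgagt
In Per1 the E-box began 166 bases before the start and the D-box 24 bases before it. In Cry1 the E′-box and the E-box began 79 and 60 bases before the start. The ROR element of Arntl began 27 bases after the start, and the D-boxes of Per3 began 205 and 158 bases before it.

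Such short motifs also stood in promoters at large, at shares from 0.219% to 7.15% of windows. CACGTG stood in windows of 2 of the 9 clock genes, beside 8.09% of all 27025 genes and 7.15% of all 32851 windows. CACGTT stood in 3 of the 9 (Cry1, Cry2 and Nr1d1), beside 5.44% of genes and 4.68% of windows. TTATGNAA stood in 2 of the 9, beside 3.99% of genes and 3.38% of windows, and the ROR element in 1 of the 9, beside 0.259% of genes and 0.219% of windows. The cyclic AMP element TGACGTCA stood in 1.79% of windows and in 0 of the 13 windows of the clock genes. With each window ended at its start site, Arntl lost its ROR element and the other counts among clock genes were the same. Both strands were searched, no match overlapped another in the same window, windows of 1 gene can share bases, and a match describes letters only.

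**Figure D1:**
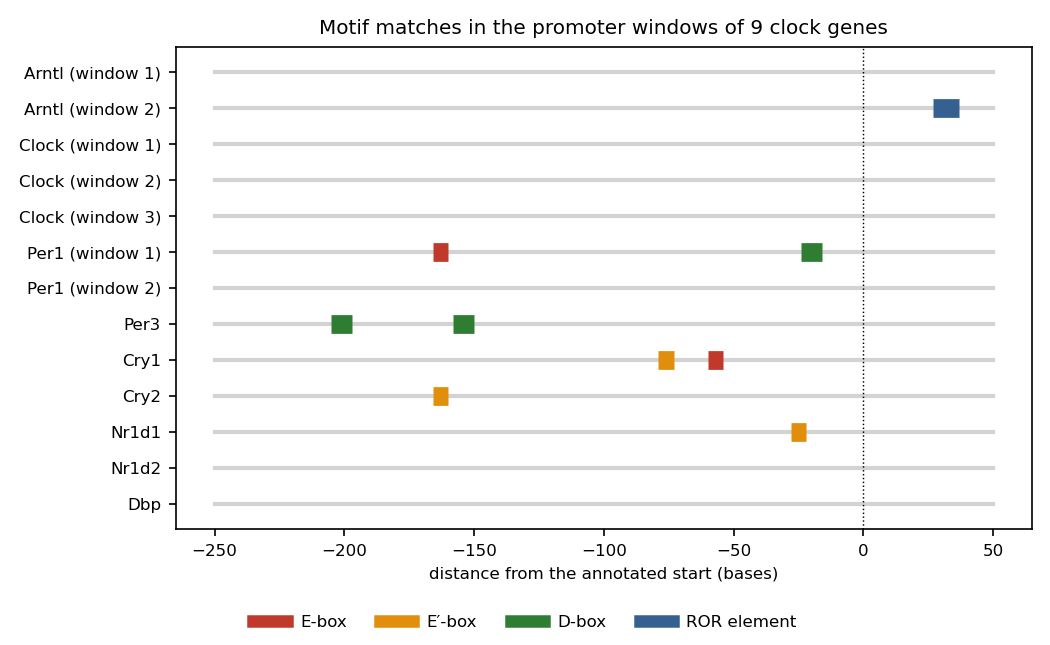
Positions of motif matches in the 13 promoter windows of 9 clock genes, in bases from the annotated start (dotted line). Coloured blocks are matches and grey lines the windows, and Per1 has an E-box 166 bases and a D-box 24 bases before its start.

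Counts assigned to genes ran from 27640853 to 42806327 per library. Levels are given as CPM, counts brought to a common library total by the TMM method of edgeR. Of the markers that define the sort, Kit was at 621 to 1054 CPM in db/db libraries and 563 to 799 CPM in db/m libraries, and Ly6a, which encodes Sca-1, was at 91.7 to 178 CPM in db/db libraries and 317 to 568 CPM in db/m libraries. Lepr was at 0.412 to 2.66 CPM in db/db libraries and 0.0973 to 1.27 CPM in db/m libraries. The db allele is known to alter splicing, so a gene-level count does not check the genotype labels. In the authors' deposited mapping statistics, reads between genes took 5.15% to 11.89% in db/db libraries, 12.25% in db/m replicate 3 and 23.36% to 26.54% in the other db/m libraries. Of markers of other cells, summed plasma cell markers ran from 1557 to 6686 CPM in db/db and 4837 to 19596 CPM in db/m, and summed erythroid markers from 1720 to 4758 CPM in db/db and 909 to 1208 CPM in db/m. Their part in the values below was not tested.

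Per length of exon, Per1 and Nr1d2 were the most abundant clock genes in LSK cells and Clock the least. In RPKM, which also divides by the length of exon, Per1 averaged 28.2 ± 7.68 in db/db and 26.9 ± 16.7 in db/m, and Nr1d2 averaged 19.8 ± 3.85 in db/db and 20.01 ± 7.59 in db/m (SD, n = 4 each), values within each other's spread in db/m. Cry2 followed with 11.99 ± 2.05 RPKM in db/db and 13.2 ± 2.92 RPKM in db/m. Cry1 was within the spread of Cry2, at 10.6 ± 1.17 RPKM in db/db and 13.3 ± 1.47 RPKM in db/m. Arntl had 8.49 ± 1.79 RPKM in db/db and 6.98 ± 1.15 RPKM in db/m. Nr1d1 had 8.28 ± 1.30 RPKM in db/db and 9.19 ± 3.83 RPKM in db/m, and Per2 had 6.65 ± 0.953 RPKM in db/db and 6.10 ± 2.21 RPKM in db/m, so these neighbours in the order were within each other's spread. Dbp and Per3 had lower averages, within each other's spread. Dbp had 3.46 ± 0.497 RPKM in db/db and 3.91 ± 1.21 RPKM in db/m, and Per3 had 3.36 ± 0.919 RPKM in db/db and 3.03 ± 0.530 RPKM in db/m. Clock had 1.76 ± 0.116 RPKM in db/db and 1.596 ± 0.418 RPKM in db/m, below Per3 by more than their spread.

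None of the clock genes passed the test between db/db and db/m LSK cells (0 of 10 at a Benjamini-Hochberg adjusted p of 0.05 over all genes, by the quasi-likelihood test of edgeR). The same test called 0.0365% of the 13708 genes, 0.0146% as higher and 0.0219% as lower in db/db. DESeq2 called 0 of the 10 and 6.07% of the genes for which it gave an adjusted p, limma-voom called 0 of the 10 and 0% of all genes, and edgeR's likelihood ratio test called 0 of the 10 and 4.28% of all genes. At such shares a count of 0 among 10 genes says little about the clock genes. The authors' deposited table lists 587 genes under an FDR of 0.05, and 0 of the 10 were among them. At an unadjusted p under 0.05 there was 1 clock gene, Cry1, beside 15.3% of all genes. Groups did not overlap in 0 of the 10, beside 9.03% of all genes. Log2 fold changes of db/db over db/m were positive for 5 clock genes and negative for 5, with a median of 0.03, beside 0.01 over all genes.

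**Figure D2:**
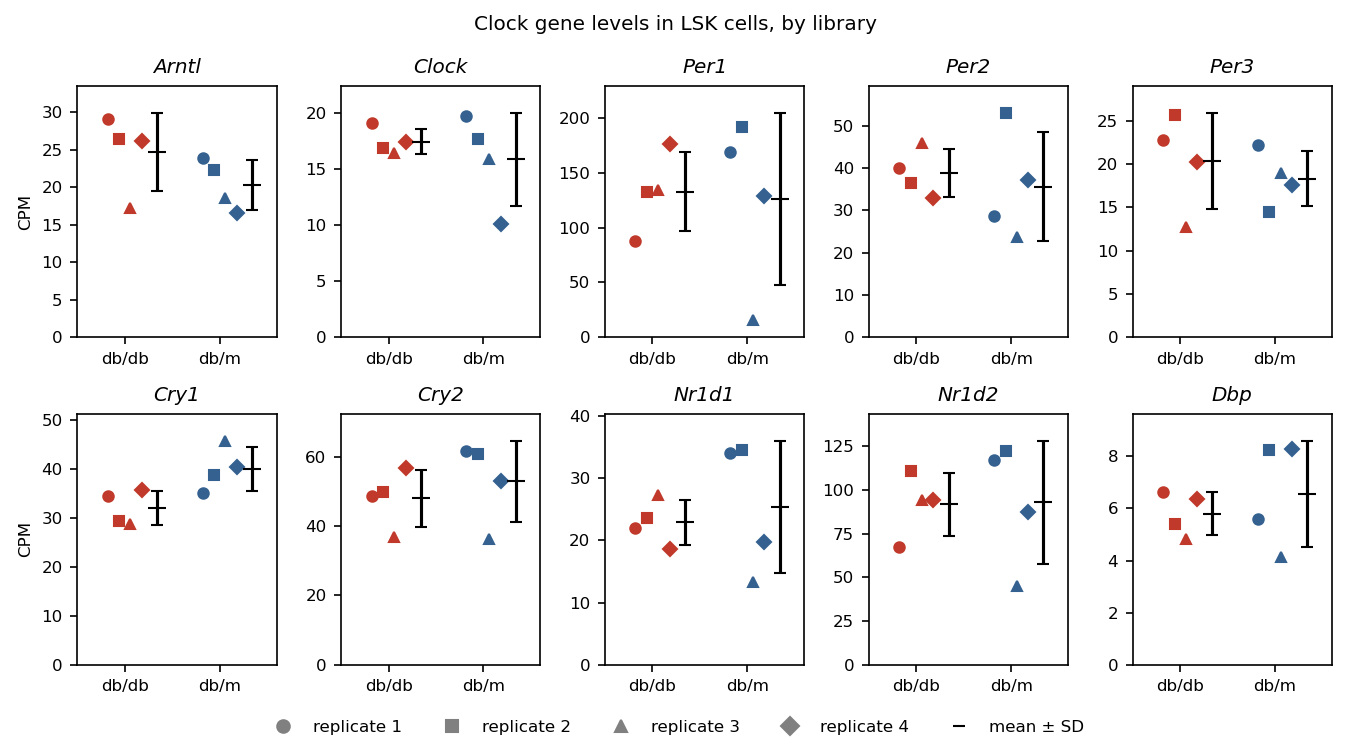
CPM of each clock gene in every library, with db/db libraries in red, db/m libraries in blue and the mean ± SD of 4 libraries in black; marker shape gives the replicate number within its genotype and pairs no samples. The genotypes overlap in each panel, and Per1 in db/m replicate 3 lies at 15.3 CPM, below the other 7 libraries.

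The activators had higher averages in db/db, and neither passed the test. Arntl (mm10 chr7:113207465-113314126, plus strand), without which the clock stops in mice, was at 29.1, 26.4, 17.2 and 26.1 CPM in db/db replicates 1 to 4, against 23.8, 22.3, 18.5 and 16.5 CPM in db/m replicates 1 to 4. Replicates 1, 2 and 4 of db/db lay above all db/m libraries, and db/db replicate 3 lay within the db/m range. The log2 fold change was 0.28 ± 0.20 (SE), with a 95% interval of -0.16 to 0.72 and an adjusted p of 0.540 by edgeR. It was positive in all 20 alternative fits, with adjusted p of 0.237 to 0.780. Clock (chr5:76209868-76304792, minus strand), the partner of Arntl, was at 19.04, 16.8, 16.4 and 17.4 CPM in db/db, against 19.7, 17.7, 15.9 and 10.07 CPM in db/m. Replicate 4 of db/m stood below the other 7 libraries, and the log2 fold change of 0.14 ± 0.21 (95% interval -0.33 to 0.61, adjusted p = 0.803 by edgeR) became -0.03 without it.

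Among the Per repressors, Per1 (chr11:69098956-69109957, plus strand) varied most, and 1 db/m library set its spread. Per1 was at 88.2, 132, 134 and 176 CPM in db/db, against 169, 192, 15.3 and 129 CPM in db/m. Replicate 3 of db/m lay below the other 7 libraries, the lowest of which was 5.75 times as high, and the remaining db/m libraries overlapped the db/db libraries. The log2 fold change was 0.07 ± 0.56 (95% interval -1.19 to 1.33, adjusted p = 0.972 by edgeR). Without db/m replicate 3 it was -0.31 ± 0.22, with an adjusted p of 0.568 by edgeR, and it was -0.10 when db/db replicate 4 was left out. The within-genotype spread of Per1 on the log2 scale was larger than that of 94.9% of all genes.

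Per2 (chr1:91415982-91459328, minus strand), a repressor whose loss disturbs daily rhythms in mice, was at 39.98, 36.4, 45.98 and 32.98 CPM in db/db, against 28.7, 53.04, 23.6 and 37.1 CPM in db/m. The db/m libraries spanned the whole db/db range. The log2 fold change was 0.13 ± 0.24 (95% interval -0.40 to 0.65, adjusted p = 0.846 by edgeR), and -0.04 without db/m replicate 3. Per3 (chr4:151003655-151044665, minus strand), a paralog with a lesser part in timekeeping, was at 22.7, 25.7, 12.7 and 20.3 CPM in db/db, against 22.2, 14.5, 18.9 and 17.6 CPM in db/m. Here db/db replicate 3 was the lowest of the 8 libraries and db/db replicate 2 the highest. The log2 fold change was 0.15 ± 0.23 (95% interval -0.36 to 0.66, adjusted p = 0.805 by edgeR).

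Cry1 (chr10:85131700-85185054, minus strand), a repressor whose loss shortens the daily period in mice, had the smallest p of the 10. It was at 34.5, 29.4, 28.7 and 35.7 CPM in db/db, against 35.2, 38.9, 45.9 and 40.4 CPM in db/m. The groups overlapped by a single pair, db/db replicate 4 and db/m replicate 1. The log2 fold change was -0.32 ± 0.13 (95% interval -0.62 to -0.02), with an unadjusted p of 0.0368 and an adjusted p of 0.290 by edgeR. It was negative in all 20 alternative fits, from -0.51 to -0.20, with adjusted p of up to 0.567 and no call. Within genotypes Cry1 was the steadiest of the 10, with a spread larger than that of 17.0% of all genes. Cry2 (chr2:92403647-92434069, minus strand), its paralog, was at 48.5, 49.7, 36.95 and 56.7 CPM in db/db, against 61.6, 60.7, 36.4 and 52.9 CPM in db/m. Replicate 3 was the lowest library of each genotype, and the log2 fold change was -0.14 ± 0.19 (95% interval -0.56 to 0.28, adjusted p = 0.775 by edgeR).

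Over the 8 libraries, the genes whose log2 CPM followed Cry1 most closely were Tmem119 (Pearson r 0.97), the T cell surface gene Cd6 (0.96) and the DNA repair gene Spidr (0.96), and the lowest r was that of Cast, the calpain inhibitor (-0.97). These were picked as the extremes of 11161 genes and are given as a description.

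The Rev-erb receptors, which bind ROR elements and repress Arntl, differed between genotypes by less than the spread of the libraries. Nr1d1 (chr11:98767932-98775377, minus strand) was at 22.0, 23.6, 27.3 and 18.7 CPM in db/db, against 34.03, 34.6, 13.3 and 19.7 CPM in db/m. The db/m libraries lay on both sides of the db/db range, with replicates 1 and 2 above it and replicate 3 below it. Nr1d2 (chr14:18204056-18239106, minus strand) was at 67.6, 111, 94.2 and 94.1 CPM in db/db, against 117, 122, 45.2 and 87.5 CPM in db/m, with the same db/m replicates above and below the db/db range. Log2 fold changes were -0.15 ± 0.29 for Nr1d1 (95% interval -0.79 to 0.50) and -0.02 ± 0.28 for Nr1d2 (95% interval -0.64 to 0.61), with adjusted p of 0.853 and 0.986 by edgeR. The sign of Nr1d2 turned under upper-quartile scaling and without db/db replicate 1 (0.10), and both signs turned without db/m replicate 1 (0.02 for Nr1d1 and 0.11 for Nr1d2) or db/m replicate 2 (0.04 and 0.14). Thra, a thyroid hormone receptor gene that lies beside Nr1d1 on the other strand, shared 0 exonic bases with it in the deposited table. Thra was at 23.2 ± 1.85 CPM in db/db and 19.8 ± 0.853 CPM in db/m (log2 fold change 0.23 ± 0.13, adjusted p = 0.440 by edgeR).

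Dbp (chr7:45705247-45710203, plus strand), a transcription factor that carries the rhythm to other genes through D-boxes, had the fewest reads of the 10. It was at 6.63, 5.41, 4.83 and 6.35 CPM in db/db, against 5.61, 8.23, 4.14 and 8.27 CPM in db/m. The db/m libraries lay on both sides of the db/db range, and the log2 fold change was -0.18 ± 0.28 (95% interval -0.81 to 0.45, adjusted p = 0.814 by edgeR). Of the exonic bases of Dbp, 32.1% were shared with Sphk2, a sphingosine kinase gene on the other strand. Sphk2 was at 45.5 ± 4.06 CPM in db/db and 56.0 ± 4.29 CPM in db/m, and with no strand setting known, reads of the shared stretch cannot be told apart. Cry2 shared 3.72% of its exonic bases with D930015M05Rik, and the other 8 clock genes shared none.

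**Figure D3:**
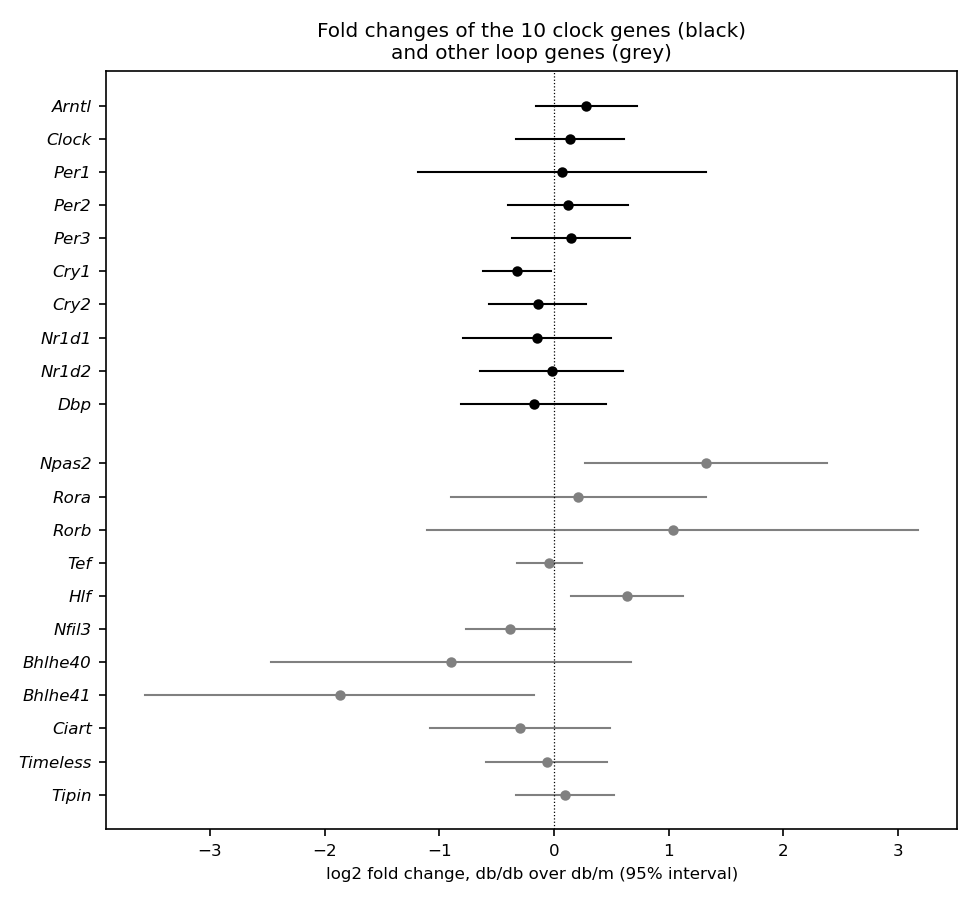
Log2 fold changes of db/db over db/m with 95% intervals from edgeR's quasi-likelihood fit, for the 10 clock genes (black) and 11 other loop genes (grey). Among the 10 clock genes the interval of Cry1, -0.62 to -0.02, is the one that leaves out 0.

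Compared by arm, the activators, the Per and Cry repressors, the Rev-erb receptors and Dbp each overlapped between genotypes. Median log2 fold changes were 0.21 for the activators, 0.07 for the repressors, -0.08 for the Rev-erb receptors and -0.18 for Dbp. Mean log2 CPM over the activators was 4.36 ± 0.21 in db/db and 4.14 ± 0.33 in db/m, and over the repressors 5.43 ± 0.13 in db/db and 5.35 ± 0.45 in db/m (SD, n = 4 each). For the Rev-erb receptors it was 5.50 ± 0.20 in db/db and 5.50 ± 0.66 in db/m, and for Dbp 2.54 ± 0.21 in db/db and 2.67 ± 0.48 in db/m. The SD was larger in db/m than in db/db in each arm, a difference that was not tested. Without db/m replicate 3 the medians were -0.26 for the repressors, -0.31 for the Rev-erb receptors and -0.36 for Dbp, and without db/db replicate 4 that of the repressors was -0.10. The Rev-erb median was positive without db/m replicate 1 (0.068) or 2 (0.088), and the activator median was 0.084 without db/m replicate 4. With all libraries kept, limma-voom also gave a positive Rev-erb median (0.040).

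The balance between the arms varied most within db/m. The mean log2 level of the activators minus that of the repressors was -0.84, -1.09, -1.19 and -1.15 in db/db replicates 1 to 4, against -1.12, -1.36, -0.59 and -1.79 in db/m replicates 1 to 4. The highest and the lowest of the 8 differences were thus both in db/m, in replicates 3 and 4. Activators minus Rev-erb receptors gave -0.71, -1.28, -1.59 and -0.97 in db/db, against -1.54, -1.71, -0.51 and -1.68 in db/m, and db/m replicate 3 was again the highest. Activators minus Dbp gave 1.82, 1.95, 1.79 and 1.74 in db/db, against 1.94, 1.26, 2.04 and 0.64 in db/m. Here the db/db libraries lay close together, with db/m libraries above and below them.

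**Figure D4:**
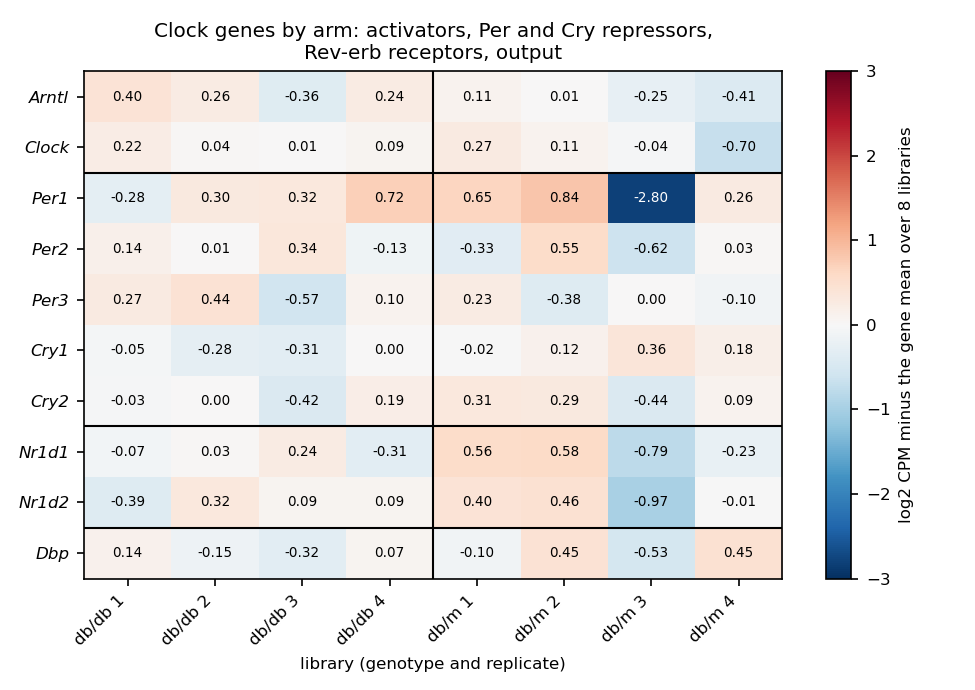
Log2 CPM of each clock gene minus its mean over the 8 libraries, with db/db libraries on the left and db/m libraries on the right, and lines between the activators, the Per and Cry repressors, the Rev-erb receptors and Dbp. The darkest cell is Per1 in db/m replicate 3, where log2 CPM was 3.95.

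Relations among the clock genes were computed for all 45 pairs over the 8 libraries, with exact two-sided permutation tests and Benjamini-Hochberg adjustment, and 0 passed on Pearson's r or on Spearman's rho. The lowest adjusted p was that of Per1 with Nr1d2, a pair named after its value was seen. Their r was 0.93 and rho 0.83 (exact permutation p = 0.00156 and 0.0154, adjusted p = 0.0703 and 0.231), and r was 0.84 without db/m replicate 3 and 0.57 without that library and db/db replicate 1, the libraries farthest from the median of Per1. Arntl and Nr1d1, which the loop sets against each other in time, gave r = 0.18 and rho = 0.05 (exact permutation p = 0.660 and 0.935, adjusted p = 0.901 and 0.956). Without the 2 libraries farthest from the median of Arntl, r was 0.29. Arntl and Dbp gave r = 0.12 and rho = 0 (exact permutation p = 0.774 and 1, adjusted p = 0.917 and 1), and 0.48 without those libraries. Per1 and Per2 gave r = 0.64 and rho = 0.33 (exact permutation p = 0.103 and 0.428, adjusted p = 0.420 and 0.802), and r = 0.07 without the same libraries as for Nr1d2. As deviations from the genotype means, the r of these 4 pairs was 0.94, 0.24, 0.25 and 0.62.

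In db/m replicate 3, 6 of the 10 clock genes had their lowest level of all libraries (Per1, Per2, Cry2, Nr1d1, Nr1d2 and Dbp), 1 had its highest (Cry1), and Arntl, Clock and Per3 were neither. Over all genes tested, 16.5% were lowest and 17.5% were highest in that library. The log2 level of Per1 minus the mean of the other libraries was -3.20, at rank 27 from the lowest of 11162 genes with an average log2 CPM of at least 2. The library held 35557731 counts, and in a weighted limma-voom fit it had the lowest weight of its genotype (0.509), as had db/db replicate 3 (0.442). Looked at after these values were seen, the 15 of 15 genes listed as CREB targets or immediate early genes were lowest there. Nr4a1, an inducible orphan nuclear receptor, was at 2199, 3195, 2310 and 2406 CPM in db/db, against 3924, 3578, 167 and 2209 CPM in db/m. Of the 18 glucocorticoid targets 11 were lowest there, among them Klf9, a transcription factor, at 72.2, 89.35, 63.9 and 105 CPM in db/db, against 102, 126, 11.5 and 106 CPM in db/m. The target Fkbp5 was not low there, at 171, 136, 155 and 103 CPM in db/db, against 118, 187, 187 and 161 CPM in db/m. Highest in that library were 0 of the 18 targets. Stem cell markers were lowest there in 10 of 16 genes, megakaryocyte markers in 4 of 10, erythroid markers in 1 of 12 and lymphoid markers in 1 of 9. Granulocyte-monocyte, plasma cell, T and NK cell and macrophage markers were lowest there in 0. Summed plasma cell markers were nonetheless at 4837 CPM there, against 17791, 19596 and 13865 CPM in db/m replicates 1, 2 and 4. In db/db that sum ran from 1557 to 6686 CPM. The part of these programs or of the time of sampling in the low Per1 value was not tested.

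**Figure D5:**
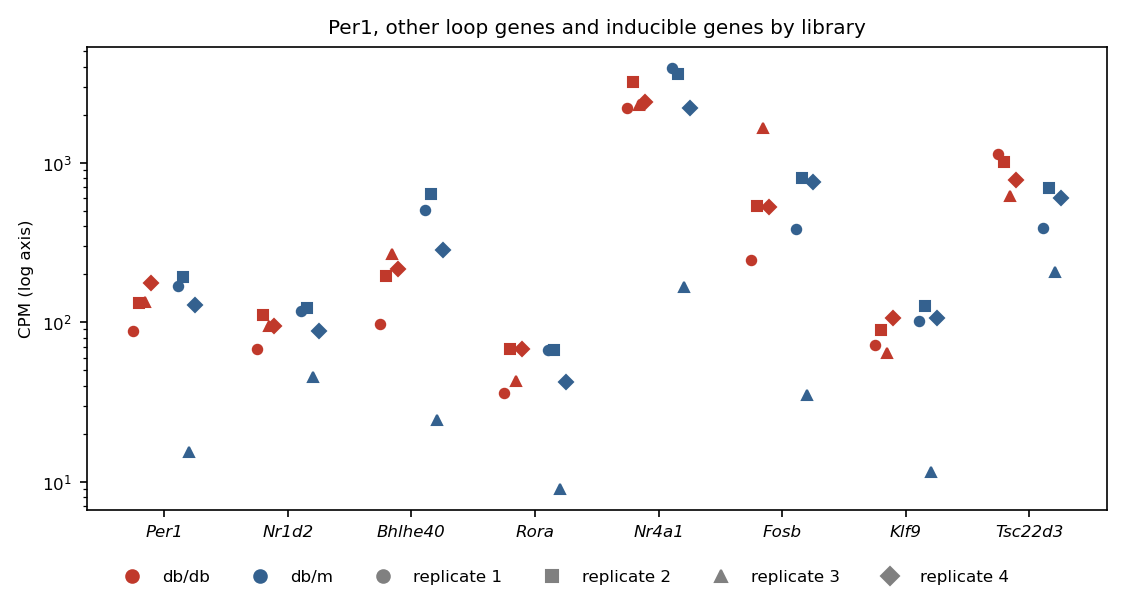
CPM on a log axis of Per1, Nr1d2, the loop genes Bhlhe40 and Rora, and the inducible genes Nr4a1, Fosb, Klf9 and Tsc22d3, with db/db libraries in red to the left of db/m libraries in blue and shape giving the replicate number within its genotype. The 8 genes were picked as low in db/m replicate 3, which is the lowest library for each, and Per1 there is at 15.3 CPM. Lowest there were 6 of the 10 clock genes and 5 of the 11 other loop genes. So were 11 of the 18 glucocorticoid targets and 15 of the 15 CREB and immediate early genes.

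Of the other genes of the loop, 11 of 12 listed were tested (Bmal2 was not), and 0 passed the adjusted threshold, beside 0.0365% of all genes. A count of 0 at that share says little about this list or those that follow. Log2 fold changes of the other loop genes were positive in 5 and negative in 6 (median -0.04). At an unadjusted p under 0.05 there were 3 (Npas2, Hlf and Bhlhe41), beside 15.3% of all genes. Npas2, a paralog that can take the place of Clock, was at 5.94, 10.6, 3.397 and 5.24 CPM in db/db, against 4.09, 2.44, 2.53 and 0.991 CPM in db/m. Its groups overlapped because the level in db/m replicate 1 exceeded that in db/db replicate 3 (log2 fold change 1.32 ± 0.47, adjusted p = 0.225 by edgeR).

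Hlf, a relative of Dbp that also marks stem cells, was at 266, 320, 167 and 221 CPM in db/db, against 196, 168, 113 and 149 CPM in db/m (log2 fold change 0.64 ± 0.22, adjusted p = 0.207 by edgeR). The db/db libraries lay above the db/m libraries except for db/db replicate 3. The stem cell markers, Hlf among them, had 14 of 16 positive log2 fold changes (median 0.60) and 1 gene called, Ly6a, which was lower in db/db (adjusted p = 0.0445 by edgeR), a call lost where no gene was called: under limma-voom, under upper-quartile scaling, and without any 1 of db/db replicates 1, 2 and 3 and db/m replicates 2 and 4. Their summed level was 3177 to 4729 CPM in db/db and 2840 to 3976 CPM in db/m, and their part in Hlf was not tested. In bulk samples, fewer cells of a type and less RNA per cell cannot be told apart. Tef, the remaining factor of that family, was at 53.7 ± 6.19 CPM in db/db and 55.1 ± 5.91 CPM in db/m. Nfil3, which represses D-box genes, was at 16.3, 15.0, 22.1 and 23.7 CPM in db/db, against 23.8, 25.9, 25.8 and 24.7 CPM in db/m. It was the 1 of the 11 other loop genes whose groups did not overlap, beside 9.03% of all genes. Its log2 fold change was -0.38 ± 0.17, with an adjusted p of 0.338 by edgeR.

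The E-box repressors Bhlhe40 and Bhlhe41 (Dec1 and Dec2) had negative log2 fold changes, and neither passed the test. Bhlhe40 was at 97.5, 195, 268 and 216 CPM in db/db, against 508, 634, 24.4 and 283 CPM in db/m, and Bhlhe41 at 1.56, 0.456, 5.43 and 6.39 CPM in db/db, against 17.0, 18.8, 3.05 and 11.7 CPM in db/m. In both genes db/m replicates 1, 2 and 4 lay above all db/db libraries and db/m replicate 3 did not. Log2 fold changes were -0.90 ± 0.70 and -1.87 ± 0.76, with adjusted p of 0.592 and 0.282 by edgeR. Ciart, another repressor of ARNTL and CLOCK, was at 8.92 ± 2.03 CPM in db/db and 10.97 ± 4.90 CPM in db/m (adjusted p = 0.742 by edgeR). The ROR receptor genes Rora and Rorb, whose products activate Arntl, were at 53.7 ± 16.8 CPM in db/db and 46.4 ± 27.6 CPM in db/m for Rora, and at 2.05 ± 1.26 CPM in db/db and 0.999 ± 1.41 CPM in db/m for Rorb, with adjusted p of 0.883 and 0.656 by edgeR. Timeless and Tipin, partners at the replication fork, were at 93.8 ± 28.5 and 148 ± 38.8 CPM in db/db and at 97.95 ± 26.3 and 139 ± 24.8 CPM in db/m.

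The enzymes and cofactors that act on clock proteins gave 0 calls among 30 tested, with 14 positive and 16 negative log2 fold changes, a median of -0.01 and 4 genes at an unadjusted p under 0.05, a share near the 15.3% of all genes. Prkaa1, the catalytic AMP kinase subunit known to mark CRY1 for degradation, was at 65.8, 60.9, 63.2 and 61.1 CPM in db/db, against 47.0, 49.5, 52.8 and 45.8 CPM in db/m. All db/db libraries lay above all db/m libraries, with a log2 fold change of 0.36 ± 0.10 and an adjusted p of 0.123 by edgeR. It was the 1 of the 30 genes whose groups did not overlap, beside 9.03% of all genes. Fbxw7, a ubiquitin ligase subunit, was at 29.8 ± 5.27 CPM in db/db and 43.98 ± 8.49 CPM in db/m (log2 fold change -0.56 ± 0.18, adjusted p = 0.174 by edgeR). Usp2, a deubiquitinase that is also a rhythmic output of the clock, was at 8.07 ± 2.01 CPM in db/db and 13.3 ± 4.25 CPM in db/m (-0.72 ± 0.30, adjusted p = 0.288). Nono, an RNA-binding partner of PER proteins, was at 423 ± 16.5 CPM in db/db and 498 ± 41.5 CPM in db/m (-0.24 ± 0.10, adjusted p = 0.321).

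Genes known as outputs of the clock in other tissues gave 0 calls among 17 tested of 21 listed, with 9 positive and 8 negative log2 fold changes, a median of 0.03 and 4 genes at an unadjusted p under 0.05, beside 15.3% of all genes. Por, the electron donor of cytochrome P450 enzymes, was at 339, 286, 260 and 292 CPM in db/db, against 239.6, 245, 208 and 195 CPM in db/m, so that the groups did not overlap (log2 fold change 0.41 ± 0.12, adjusted p = 0.161 by edgeR). The tetraspanin Tspan4 was at 163 ± 13.8 CPM in db/db and 136 ± 7.85 CPM in db/m, and the fatty acid transporter Cd36 at 17.7 ± 11.5 CPM in db/db and 8.29 ± 3.57 CPM in db/m, with adjusted p of 0.262 and 0.285 by edgeR. Groups did not overlap in 2 of the 17 genes, Por and Tspan4, beside 9.03% of all genes.

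The inducible programs that also act on Per1 gave no calls, beside 0.0365% of all genes. Among 18 glucocorticoid targets 0 were called, 7 log2 fold changes were positive and 11 negative, the median was -0.12 and 6 had an unadjusted p under 0.05, beside 15.3% of all genes. Txnip, a glucose-responsive inhibitor of thioredoxin, was at 814, 683, 460 and 651 CPM in db/db, against 395, 391, 313 and 348 CPM in db/m. Its groups did not overlap, and its adjusted p of 0.0808 by edgeR, with a log2 fold change of 0.85 ± 0.17, was the lowest of that list. The metallothionein Mt1 went the other way in its averages, 50.8 ± 27.5 CPM in db/db and 149 ± 70.3 CPM in db/m (adjusted p = 0.134 by edgeR). Cdkn1c, a cell cycle inhibitor of resting stem cells, was at 29.7 ± 4.22 CPM in db/db and 17.2 ± 7.15 CPM in db/m, and Tsc22d3, which encodes GILZ, at 885 ± 232 CPM in db/db and 473 ± 220 CPM in db/m, with adjusted p of 0.246 and 0.251 by edgeR. Groups did not overlap in 2 of the 18 targets, Txnip and Cdkn1c, beside 9.03% of all genes. Among 15 CREB and immediate early genes 0 were called and 0 had an unadjusted p under 0.05, beside 15.3% of all genes. Their log2 fold changes were positive in 12, with a median of 0.27. The mean log2 level of the list, centred over the 8 libraries, was -2.12 in db/m replicate 3. It was 0.33, 0.64 and 0.15 in db/m replicates 1, 2 and 4, against -0.21, 0.28, 0.69 and 0.24 in db/db. How far the positive signs rest on db/m replicate 3 was not tested. Egr1, an early response transcription factor, was at 3128, 3612, 8046 and 2802 CPM in db/db, against 2647, 3793, 521 and 2299.6 CPM in db/m. Its highest library was db/db replicate 3 and its lowest db/m replicate 3 (log2 fold change 0.93 ± 0.53, adjusted p = 0.442 by edgeR). Ier2, Jun and Ppargc1a, a coactivator of metabolic genes, had log2 fold changes of 0.49, 0.47 and 0.57 with adjusted p of 0.542 to 0.592.

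Markers of other cells in the marrow leaned one way within most lists. Log2 fold changes were positive for 12 of 12 erythroid markers (median 1.75) and 9 of 10 megakaryocyte markers (median 1.29). They were negative for 10 of 11 granulocyte-monocyte markers (median -0.90), 8 of 9 lymphoid markers (median -0.71), 10 of 10 plasma cell markers (median -1.87) and 9 of 10 T and NK cell markers (median -1.34). For macrophage markers they were positive in 7 of 8 (median 1.18). In these lists 0 genes were called by edgeR, beside 0.0365% of all genes. At an unadjusted p under 0.05 there were 11 erythroid, 9 megakaryocyte, 5 granulocyte-monocyte, 6 lymphoid, 10 plasma cell, 6 T and NK cell and 0 macrophage markers, beside 15.3% of all genes. Cd8a, Gzma and Marco had 0 counts in at least 1 library. Summed levels ran from 2218 to 5587 CPM in db/db and 3316 to 13755 CPM in db/m for granulocyte-monocyte markers, and from 1272 to 2677 CPM in db/db and 622 to 1121 CPM in db/m for megakaryocyte markers. Summed lymphoid markers ran from 978 to 1234 CPM in db/db and 1439 to 2004 CPM in db/m, T and NK cell markers from 179.5 to 228 CPM in db/db and 245 to 433 CPM in db/m, and macrophage markers from 132 to 3224 CPM in db/db and 596 to 987 CPM in db/m.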

How the data were processed

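RNA of 8 LSK samples was sequenced, and groups were read from the genotype labels. The authors deposited raw read counts per gene for 13708 genes, made with STAR 2.7.10a and featureCounts of Subread 2.0.3 on mm10, per the submitters' processing notes. No source used here gives the annotation or the strand setting. Beside the counts, the deposited table holds the authors' log2 CPM, log2 fold changes, p-values with FDR and a signed fold change score, used here only as named. No gene had fewer than 79 counts in total, which points to an earlier filter that is not described. Date-like symbols stood in 21 rows and were kept.

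The counts were scaled by TMM and tested with the quasi-likelihood test of edgeR 4.0.16 (R 4.3.3) with Benjamini-Hochberg adjustment over all genes. filterByExpr removed 0 genes. Log2 CPM used a prior count of 2, and the biological coefficient of variation was 31.3%. RPKM used the exon lengths of the deposited table. Alternatives included DESeq2 1.42.0 and limma-voom 3.58.1, other scalings, other filters, block terms and left-out libraries. The fit was tested on simulated data. With 4 libraries a group, intervals give the uncertainty of the log2 fold change, estimated from the spread between libraries. Libraries of a genotype differed beyond counting noise.

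The members and all lists were chosen with earlier results of these data known. All 10 members are named, with every tested gene of the other loop list, the 4 genes of smallest p of each further pathway list (markers of cell types are given as counts and sums), Thra, and for Cry1, the member of smallest p, the 3 genes of highest and the 1 of lowest correlation among genes with an average log2 CPM of at least 2. Sphk2, Kit, Ly6a, Lepr, Nr4a1, Klf9, Fkbp5, Fosb, Hes1, Cd8a, Gzma, Marco and the genes most like Per1 were named outside this rule, after values were seen. A gene of the lists is not reported here.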

Additional observations from a re-analysis of the deposited data

Results flagged for a closer look

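Among the 10 clock genes, each group of 4 libraries was checked for a library far from its own group with Dixon's test, on CPM and on log2 CPM. Of 20 groups on each scale 1 stood out: Per1 in db/m replicate 3, at a log2 CPM of 3.95. Its gap to the nearest db/m library was 0.842 of the range of the group. On the CPM scale the same library did not stand out by this test. Chance flags about 5% of groups.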

How the results depend on the processing

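Across 20 alternative fits 0 of the 10 clock genes were called, and Arntl, Per3 and Cry1 kept their sign in all of them. These fits reuse the same libraries, and the fit with no filter repeats the main fit, since filterByExpr removed 0 genes. The count of genes called over the whole table was 5. It was 0 with upper-quartile scaling or limma-voom, 767 with DESeq2, 587 with the likelihood ratio test and 192 with library quality weights. It was 195 without the library of lowest weight in each genotype, and 0 to 90 when 1 library was left out. With the title prefix as a correlated block in limma-voom it was 14. Each prefix stands in a single genotype, and the correlation estimated within prefixes was -0.042. The number in the titles served as a replicate block, and the count was 5. Same-numbered libraries correlated at -0.15 to 0.14 in their deviations, and the labels do not say that they are paired. The number 3 stands in the title of db/m replicate 3 alone, so this block in effect leaves that library out. With the block the log2 fold changes were -0.38 for Per1 and -0.029 for Per2, near the -0.31 and -0.038 without db/m replicate 3. Signs also turned for Nr1d2 with upper-quartile scaling (0.0033), limma-voom (0.073) and the prefix block (0.073), for Nr1d1 with limma-voom (0.0062), and for Per1 (-0.30) and Per2 (-0.12) without the libraries of lowest weight. The log2 fold change of Per1 was 0.56 with limma-voom and 0.57 with the prefix block, against 0.07 in the main fit. Leaving out 1 library gave ranges of -0.027 to 0.26 for Clock, -0.31 to 0.35 for Per1, -0.038 to 0.38 for Per2, 0.019 to 0.32 for Per3, -0.29 to -0.034 for Cry2, -0.36 to -0.045 for Dbp, -0.37 to 0.035 for Nr1d1, -0.25 to 0.14 for Nr1d2 and -0.26 to 0.092 for the repressor median. Leaving out db/m replicates 1, 2 and 4, whose intergenic shares were high, an alternative chosen after seeing the data, leaves db/m replicate 3 as the lone db/m library, assumed to vary like db/db. It gave 0.40 for Cry2, 0.78 for Nr1d1, 1.02 for Nr1d2 and 0.49 for Dbp, medians of 0.90 for the Rev-erb receptors and 0.49 for the output arm, and 3.12 for Per1 (adjusted p = 0.0691 by edgeR). Without the 2 libraries farthest from the median, r was 0.07 for Per1 with Per2 and 0.48 for Arntl with Dbp, and 0 clock genes held the ROR element with the windows ended at the start. Beyond what is said here, the cause was not tested. The printed intervals give the sizes of difference that these libraries leave possible, the hour of sampling is unknown, and Dbp, with the fewest reads, has 32.1% of its exonic bases in doubt.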

Other observations

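Other genes followed the level of Per1 over the 8 libraries. Among 11161 genes with an average log2 CPM of at least 2, 148 had a Pearson r above 0.9 with Per1, a count that was made after the low value in db/m replicate 3 was seen. Whether it rests on that library was not tested. The highest were Osgin1 (r 0.99), an oxidative stress response gene, H2-K2 (0.99), the small Maf factor Maff (0.99), the coenzyme Q gene Coq10b (0.98) and the G protein regulator Rgs2 (0.98). Hes1, a target of Notch signalling, was at 383, 563, 346 and 654 CPM in db/db, against 656, 572, 22.5 and 370.3 CPM in db/m, so db/m replicate 3 stood below the other libraries there as well. Fosb, an immediate early gene, was at 246, 532, 1645 and 526 CPM in db/db, against 384, 800.4, 34.9 and 758 CPM in db/m, with db/m replicate 3 again the lowest.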
